A study of Rattus norvegicus with 7 samples.

Results

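Kinase genes of 5 signalling routes (protein kinase A, protein kinase C, the mitogen-activated protein kinases, the calmodulin-dependent kinases and glycogen synthase kinase 3) were examined in alveolar type 2 cells of ethanol-fed rats. The members were all probe sets whose platform annotation gave exactly 1 gene symbol starting with Prka, Prkc, Prkg, Map2k, Map3k, Mapk, Camk or Gsk3. These were 94 of the 8740 probe sets tested and 51 of 4736 genes. Each gene is described by its brightest probe set, judged by the average of all 7 arrays, and its other probe sets are given where they disagree. A probe set annotated to both Mapk8 and Mapk10 was left out by this rule.

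The prefixes also took in genes outside the 5 named routes. Prkaa1, Prkaa2, Prkab1 and Prkag1 encode subunits of the AMP-activated protein kinase, a separate energy sensor, and Prkg2 encodes a kinase activated by cyclic GMP. Of the 51 genes, 11 encode no active kinase: the PKA regulatory subunits, the beta and gamma subunits of AMP-activated kinase, the JNK scaffolds Mapk8ip1 and Mapk8ip2, the CaMKII inhibitors Camk2n1 and Camk2n2, and the pseudokinase Camkv.

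For 6 weeks, 3 male rats of the Sprague Dawley stock received the Lieber-DeCarli liquid diet with 36% of calories as ethanol, and 4 control males received an isocaloric control diet. Immuno-adsorption gave the type 2 cells, Trizol the RNA, and Affymetrix arrays the values; age was not stated. The ethanol replicates are numbered 2 to 4 and the controls 1 to 4. Control arrays carried array numbers 1 to 4 and ethanol arrays 6 to 8, so diet and anything that follows this numbering cannot be told apart. Sftpc, the surfactant protein gene that marks the type 2 cell, stood at 12.41, 12.78 and 12.55 on the ethanol arrays and 12.82, 12.84, 12.77 and 12.76 on the control arrays. All values are deposited log2 expression values, which ran from 1.65 to 12.84. A level of 1 probe set cannot be set against that of another, because probe sets differ in affinity. The number of arrays limits the precision. Array pairs correlated at 0.929 to 0.983, and control 2 stood apart from the others on the first principal component.

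These kinases act as relays. In the PKA route, cyclic AMP binds regulatory subunits and frees catalytic subunits. Most PKC isoforms respond to diacylglycerol, some of them together with calcium, and the CaM kinases respond to calcium-loaded calmodulin. In type 2 cells, cyclic AMP, PKC and calcium signals are known triggers of surfactant secretion. In the MAPK cascades, a MAP3K phosphorylates a MAP2K, which phosphorylates a MAPK, and the MAPK acts on transcription factors such as the AP-1 proteins. GSK3 is active in resting cells and marks beta-catenin for breakdown. All of them are regulated largely by phosphorylation and binding partners, which mRNA does not show.

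Ethanol feeding was followed by no difference in these mRNAs that passed the test. In limma with Benjamini-Hochberg adjustment over all probe sets, 0 of the 51 genes reached adjusted p under 0.05, where 1 of all 4736 genes (0.0211%) did. At unadjusted p under 0.05 there were 2, Gsk3b and Prkar1a, both lower with ethanol. This was 3.92% of the 51, against 4.37% of all genes. The count was again 2 without control 2 and without control 4, where 4.24% and 8.45% of all genes stood at unadjusted p under 0.05. Of the 51 genes, 30 were higher and 21 lower with ethanol, and their median log2 difference was 0.021, against -0.014 over all genes. The lowest adjusted p was 0.735 and the highest 1.00.

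The intervals limited how large a difference could have been missed. The 95% confidence interval lay within a 1.5-fold change in either direction in 41 of 51 genes (80.4%), against 74.5% of all genes. It lay within a 2-fold change in all 51, against 96.7% of all genes. These counts hold for the chosen probe sets. Of all 94 probe sets, 92 (97.9%) lay within 2-fold and 72 (76.6%) within 1.5-fold, against 96.1% and 73.0% of all probe sets. Beyond 2-fold reached Mapkapk3 rc_AI011376_at (-2.02 to 0.22) and Map2k2 rc_AA957896_s_at (-1.23 to 0.68). Differences of dim probe sets may be understated, so their intervals bound less. The intervals are for 1 probe set each and are not widened for the number of genes. The 10 genes whose interval reached beyond 1.5-fold were Prkacb, Prkar1a, Prkab1, Map3k1, Map2k2, Map2k6, Mapkapk2, Camk2d, Camk4 and Gsk3b.

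**Figure D1:**
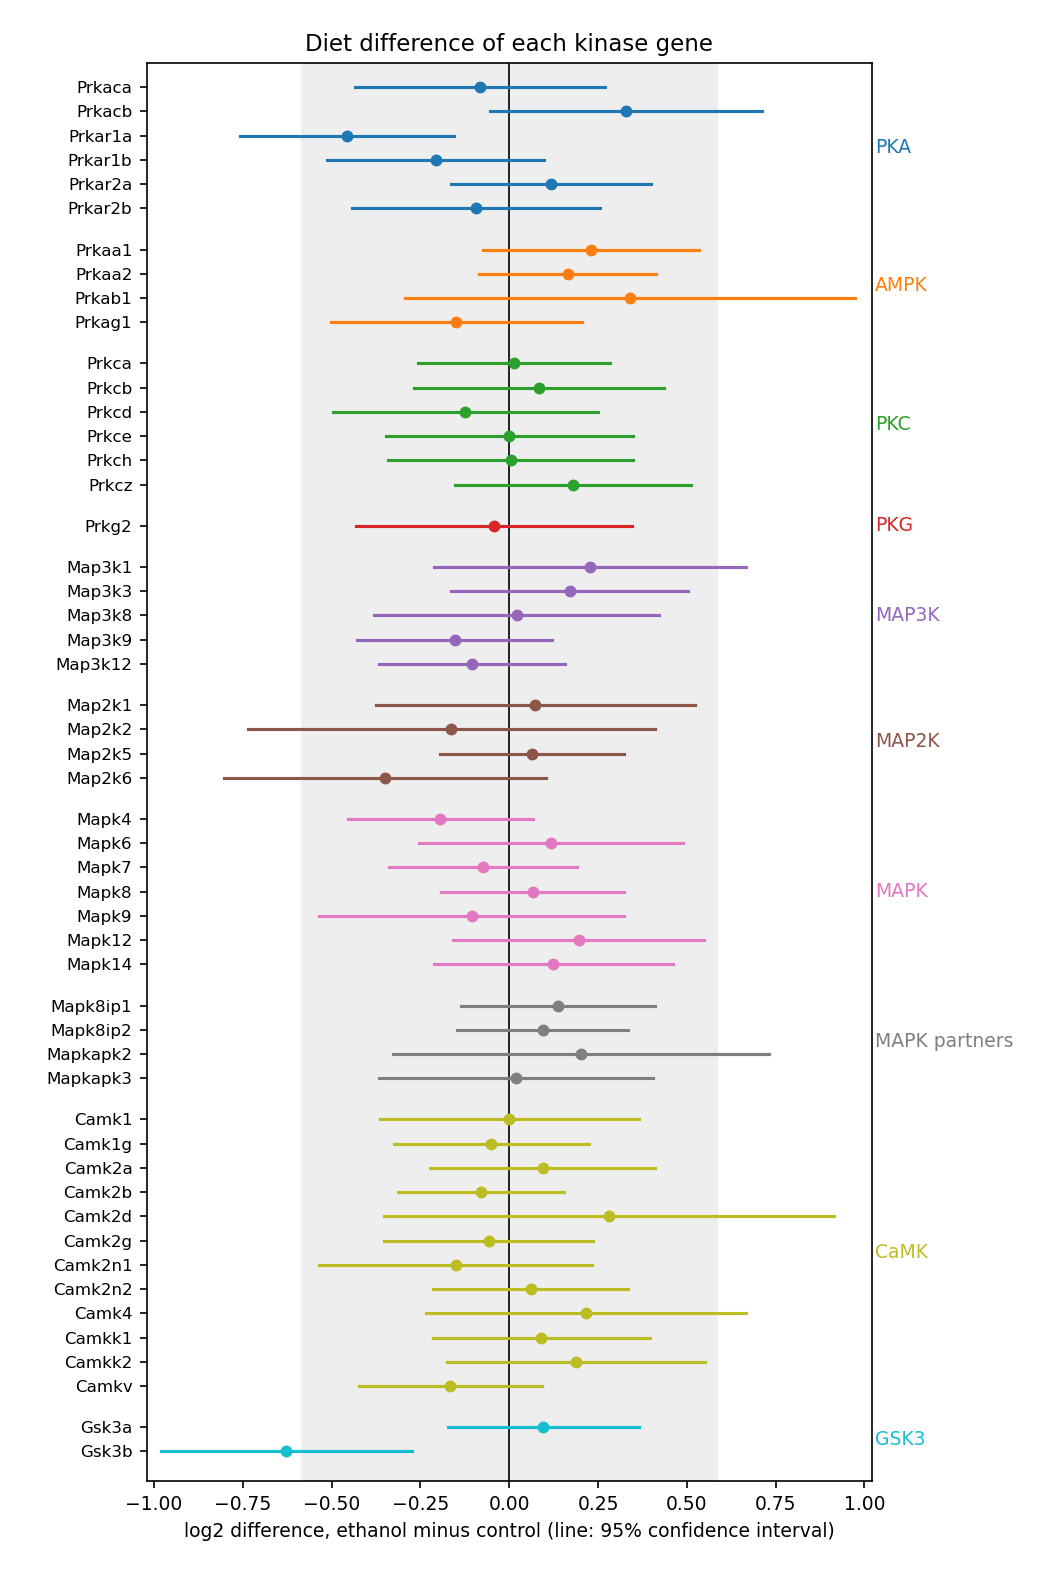
Log2 difference of ethanol minus control for each of the 51 genes, with its 95% confidence interval as a line, grouped by family. The grey band marks a 1.5-fold change in either direction, and the intervals of Gsk3b and Prkar1a are the ones that do not cross 0.

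GSK3 came closest to a difference, in the beta gene. Gsk3b stood at 4.46, 4.78 and 4.85 on the ethanol arrays, against 5.42, 5.54, 5.33 and 5.02 on the control arrays. Every ethanol array lay below every control. The group values were 4.70 ± 0.207 (SD, n = 3) with ethanol and 5.33 ± 0.223 (SD, n = 4) in controls, a log2 difference of -0.63 (SE 0.158, 95% confidence interval -0.98 to -0.27, limma unadjusted p = 0.00294, adjusted p = 0.735). The ethanol level was thus 0.647 times the control level. The second Gsk3b probe set, X53428cds_s_at, was at 4.82, 4.62 and 4.92 with ethanol and 5.0, 4.64, 5.12 and 4.79 in controls. Here the groups overlapped, with a log2 difference of -0.10 (adjusted p = 0.971), and the mean of both probe sets differed by -0.36. Gsk3a, which encodes the closely related alpha kinase, was at 6.66, 6.68 and 6.81 with ethanol and 6.56, 6.52, 6.59 and 6.80 in controls, a log2 difference of 0.096 (95% confidence interval -0.17 to 0.36).

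In the PKA family, 2 of 6 genes were higher and 4 lower with ethanol, with a median log2 difference of -0.088. Prkar1a encodes the regulatory subunit RI-alpha, which holds the catalytic subunits inactive until cyclic AMP binds. It stood at 5.61, 5.87 and 5.65 with ethanol and 6.23, 6.05, 6.37 and 6.01 in controls, so the groups did not overlap. The means were 5.71 ± 0.137 (SD, n = 3) and 6.17 ± 0.170 (SD, n = 4), a log2 difference of -0.46 (SE 0.134, 95% confidence interval -0.76 to -0.15, limma unadjusted p = 0.00739, adjusted p = 0.967). Prkar1a had 1 probe set, so no second reading was at hand. Prkacb, a catalytic subunit gene, was at 4.43, 4.50 and 4.66 with ethanol and 4.04, 3.86, 4.49 and 4.42 in controls. The difference was 0.33 (SE 0.171), and control 3 lay among the ethanol values. The main catalytic subunit gene Prkaca was at -0.083, with a second probe set at 0.20. Of the other regulatory subunit genes, Prkar1b was at -0.21, Prkar2a at 0.12 and Prkar2b at -0.094.

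Markers of other cell types were set beside these values. Of 11 endothelial markers, 7 were lower and 0 passed limma, with 0 at unadjusted p under 0.05. Their summed level, put back on the linear scale, was 574 to 613 with ethanol and 624 to 674 in controls. The brightest genes of a list weigh most in such sums. Means of the type 2 markers, for example, ran from 5.96 to 12.71. Of 17 fibroblast and smooth muscle markers, 13 were lower and 0 passed, with sums of 752 to 924 with ethanol and 813 to 919 in controls. At unadjusted p under 0.05 there were 7 of these 17 (41.2%, against 4.37% of all genes), 6 lower and 1 higher. The groups did not overlap on the lower side in 23.5% of them, against 2.83% of all genes. On the higher side this share was 5.88%, against 2.09% of all genes. Of 15 lymphocyte markers 12 were lower, with sums of 406 to 447 with ethanol and 436 to 461 in controls. Of these 15, 1 (6.67%) stood at unadjusted p under 0.05, lower, and 2 (13.3%, against 2.83%) had groups that did not overlap, both lower. Of 11 macrophage markers 8 were higher and 0 stood at unadjusted p under 0.05. Their sums were 4025 to 5990 with ethanol and 4077 to 6334 in controls. Of 12 type 2 markers 5 were higher, with sums of 10851 to 14548 with ethanol and 13011 to 14378 in controls. Of these 12, 1 (8.33%) stood at unadjusted p under 0.05, higher. Of 5 type 1 cell markers 3 were higher, with sums of 370 to 461 with ethanol and 364 to 474 in controls. At unadjusted p under 0.05 stood 2 of these 5 (40%, against 4.37% of all genes), Cav1 at 0.58 and Pdpn at -0.47. Of 4 airway club and ciliated cell markers 2 were higher and 0 stood at unadjusted p under 0.05. Their sums were 937 to 1033 with ethanol and 737 to 1504 in controls. On this log2 scale no marker is listed at 0. The part of these shifts in the Gsk3b and Prkar1a values was not tested. In such isolates, fewer cells of a type and less RNA per cell cannot be told apart.

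In the chosen probe sets, genes whose groups did not overlap were all on the lower side. All 3 ethanol arrays lay below all 4 controls in 5 of the 51 genes (9.80%), against 2.83% of all genes, and above them in 0, against 2.09% of all genes. Among all 94 probe sets, ethanol lay below in 6 (6.38%, against 2.71% of all probe sets). It lay above in 1, of Camk2d (1.06%, against 2.53%). These shares are a description without a test. The 5 genes were Gsk3b, Prkar1a, Mapk4, Camkv and Camk2b, and the differences of the last 3 were small. Mapk4, which encodes the atypical kinase ERK4, stood at 4.69, 4.57 and 4.63 with ethanol and 4.98, 4.73, 4.86 and 4.73 in controls, a log2 difference of -0.19 (SE 0.116, adjusted p = 0.967). Camkv, the pseudokinase, stood at 5.47, 5.20 and 5.41 with ethanol and 5.49, 5.52, 5.59 and 5.50 in controls (log2 difference -0.17, adjusted p = 0.967, and -0.088 without ethanol 3). Its second probe set overlapped between the groups, at -0.12. Camk2b, the beta isoform gene of CaMKII, stood at 5.526, 5.435 and 5.505 with ethanol and 5.534, 5.547, 5.584 and 5.607 in controls. The spread within its groups, an SD of 0.040, was the smallest of the 51 genes, and the difference of -0.079 had an unadjusted p of 0.468 after limma's variance moderation. The second Camk2b probe set, M16112_at, was dim, with a mean of 2.78. It overlapped between the groups, at -0.060.

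**Figure D2:**
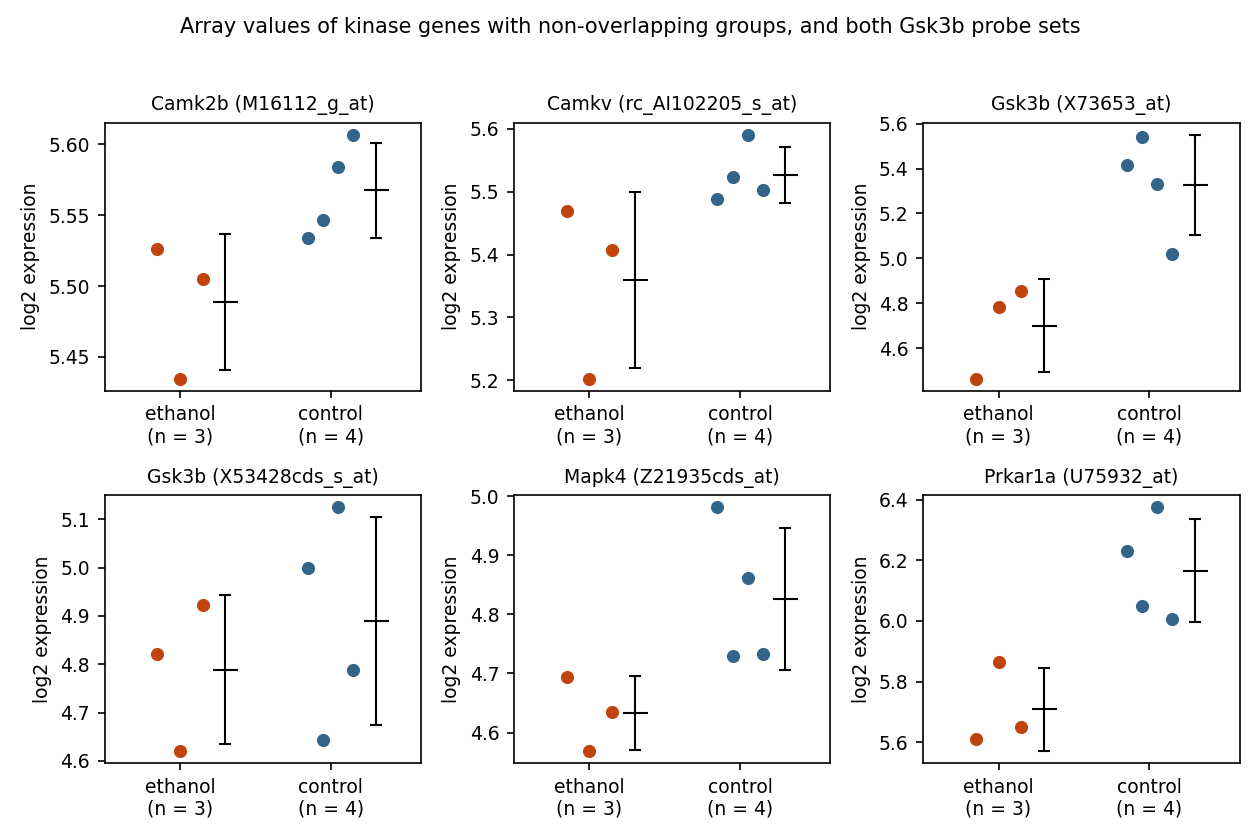
Log2 expression on each array, ethanol left of control, for the 5 genes whose groups did not overlap and for the second Gsk3b probe set (X53428cds_s_at). Points are arrays, the bar beside them is the mean with its SD, and each panel has its own axis, which does not start at 0; the second Gsk3b probe set is the panel in which the groups overlap.

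The AMP-activated kinase subunits were higher in 3 of 4 genes, with a median log2 difference of 0.20. Prkaa1, a catalytic subunit gene, was at 3.88, 3.60 and 3.76 with ethanol and 3.41, 3.34, 3.60 and 3.71 in controls (log2 difference 0.23, SE 0.135). Prkaa2, the other catalytic subunit gene, was at 0.16, and both were dim, with means under 4. The scaffold subunit gene Prkab1 was at 5.01, 5.05 and 5.54 with ethanol and 4.05, 4.92, 5.18 and 5.29 in controls. Control 1 lay far below the others there, and the difference of 0.34 was 0.072 without it. Prkag1, the gene of a nucleotide-binding subunit, was at -0.15, with control 2 above all other arrays at 6.26.

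The PKC genes lay close to 0. Of 6 genes, 4 were higher and 2 lower, with log2 differences of -0.12 to 0.18 and a median of 0.0092. The calcium-dependent isoform genes Prkca and Prkcb were at 0.014 and 0.084, and the 3 probe sets of Prkcb ran from 0.084 to 0.11. Among the isoforms that need no calcium, Prkcd was at 5.87, 6.18 and 6.35 with ethanol and 6.33, 6.01, 6.15 and 6.54 in controls (log2 difference -0.12, SE 0.166). Prkch was at 0.0039, and the chosen Prkce probe set had the same group mean of 4.87, while its other 3 probe sets stood at 0.059 to 0.18. Prkcz, the atypical isoform gene, was at 4.77, 5.09 and 5.09 with ethanol and 4.91, 4.51, 4.91 and 4.90 in controls. Its difference of 0.18 had the opposite sign in the second probe set, at -0.16, and was 0.079 without control 2. Prkg2 was dim, at 3.39, 3.24 and 2.98 with ethanol and 2.95, 3.62, 3.19 and 3.23 in controls (log2 difference -0.043).

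In the MAPK cascades, the entry kinases showed no common direction. Of 5 MAP3K genes, 3 were higher and 2 lower. Map3k1, which encodes MEKK1, was at 4.97, 5.02 and 5.35 with ethanol and 5.15, 4.38, 4.93 and 5.08 in controls (log2 difference 0.23, SE 0.196), with its other probe sets at 0.087 and -0.12. Map3k3 was at 5.27, 5.53 and 5.16 with ethanol and 5.19, 4.89, 5.36 and 5.17 in controls (log2 difference 0.17). In both genes control 2 was the lowest array. Without it the differences were 0.059 for Map3k1 and 0.082 for Map3k3. The difference was 0.11 for Map3k1 without ethanol 4 and 0.064 for Map3k3 without ethanol 3. Map3k8 was at 0.021, and the mixed-lineage kinase genes Map3k9 and Map3k12 were at -0.15 and -0.11.

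Of 4 MAP2K genes, 2 were higher and 2 lower. Map2k6, which encodes an activator of the p38 kinases, was at 4.74, 3.82 and 4.38 with ethanol and 4.73, 4.60, 4.81 and 4.49 in controls. Ethanol 3 was the lowest array, and the log2 difference of -0.35 (SE 0.202) was -0.10 without it. Map2k2, which encodes the MAP2K known as MEK2, was at 6.38, 7.00 and 7.64 with ethanol and 7.35, 6.93, 7.20 and 7.21 in controls. The ethanol arrays thus held both the lowest and the highest value, and the difference of -0.16 (SE 0.255) was 0.15 without ethanol 2. Map2k1, the gene of the closely related MEK1, was at 0.074 with its other probe sets at 0.079 and -0.26, and Map2k5, the ERK5 activator gene, was at 0.063 with a second probe set at 0.37.

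The MAPK genes themselves ran from -0.19 to 0.20, with 4 of 7 higher. Mapk12, which encodes p38 gamma, was at 4.76, 4.67 and 4.32 with ethanol and 4.11, 4.41, 4.59 and 4.46 in controls (log2 difference 0.20, SE 0.157, and 0.10 without control 1), and its second probe set had the opposite sign, at -0.14. Mapk14, the gene of p38 alpha, had 6 probe sets, of which the chosen one stood at 0.12 and the others ran from -0.16 to 0.16. The JNK genes Mapk8 and Mapk9 were at 0.066 and -0.11, with the other probe sets of Mapk9 at 0.023 and 0.15. Mapk7, which encodes ERK5, was at -0.073 with a second probe set at 0.026, and Mapk6, the ERK3 gene, was at 0.12 and 0.29.

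All 4 MAPK partner genes were on the higher side, by 0.019 to 0.20, and none passed the test. Mapkapk2, a kinase that p38 activates, was at 5.33, 5.43 and 5.95 with ethanol and 5.59, 4.82, 5.32 and 5.76 in controls (log2 difference 0.20, SE 0.235). The difference was 0.011 without ethanol 4 and 0.017 without control 2. Mapk8ip1, a scaffold of the JNK cascade, was at 4.18, 4.27 and 4.25 with ethanol and 3.96, 4.24, 3.98 and 4.21 in controls (log2 difference 0.14), and the related scaffold gene Mapk8ip2 was at 0.094. The related kinase gene Mapkapk3 was at 0.019 in its chosen probe set. Its other 3 probe sets stood at 0.21, 0.0057 and -0.90. The last of these, rc_AI011376_at, read 4.93, 2.70 and 4.96 with ethanol and 4.83, 4.67, 5.35 and 5.53 in controls, with ethanol 3 far below the other 6 arrays.

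The CaM kinase genes were higher in 7 of 12 and lower in 5, with a median log2 difference of 0.031. Camk2d, the delta isoform gene of CaMKII, had 6 probe sets that disagreed in direction. The chosen one was at 5.02, 5.34 and 5.92 with ethanol and 5.35, 4.54, 5.02 and 5.68 in controls (log2 difference 0.28, SE 0.282). Single arrays moved this value. It was 0.034 when ethanol 4 was left out and 0.079 for control 2, but 0.48 for ethanol 2 and 0.46 for control 4. The spread within groups, an SD of 0.473, was the largest of the 51 genes. The dimmer probe set rc_AI009268_at was at 3.91, 3.90 and 3.80 with ethanol and 3.34, 3.60, 3.22 and 3.55 in controls, and L13407_i_at was at 2.61, 2.41 and 2.53 with ethanol and 2.99, 2.86, 2.80 and 2.73 in controls. The groups did not overlap in either, with log2 differences of 0.44 and -0.32, unadjusted p of 0.00706 and 0.0213, and an adjusted p of 0.967 for each in limma. Of the other Camk2d probe sets, J05072_at stood at -0.25, L13406_s_at at -0.24 and rc_AA925495_at at 0.12. Over all 94 probe sets, 4 stood at unadjusted p under 0.05 (4.26%), against 4.58% of all probe sets tested.

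Camk4 was at 3.72, 4.30 and 3.39 with ethanol and 3.57, 3.67, 3.71 and 3.40 in controls. Its log2 difference of 0.22 (SE 0.200) rested on ethanol 3, and was -0.032 without it. The upstream kinase genes Camkk1 and Camkk2 were at 0.091 and 0.19. Camk1 was at 0.00058 and Camk1g at -0.051. Of the remaining CaMKII isoforms, Camk2a was at 0.094 with a second probe set at -0.11, and Camk2g at -0.058 with others at 0.063 and -0.11. The inhibitor genes Camk2n1 and Camk2n2 were at -0.15 and 0.061.

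Of the 51 genes, 25 had several probe sets. In 12 of these 25 all probe sets had the same sign and in 13 the signs differed. In 8, at least 1 probe set lay over 0.3 from the chosen one: Prkcz, Map3k1, Map2k1, Map2k5, Mapk12, Mapkapk3, Camk2d and Gsk3b. Probe sets marked s, g, i or r in their names were designed under looser rules and can share sequence with related transcripts. The chosen Prkaca probe set was of the r type. The chosen probe sets were of the s type for Prkar2b, Prkca, Prkcb, Prkce, Prkcz, Map2k1, Map2k5, Mapk9, Mapk14, Camk2d, Camk2g, Camk4, Camkk1 and Camkv. They were of the g type for Prkcd, Map3k1, Map2k2, Mapk6 and Camk2b.

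**Figure D3:**
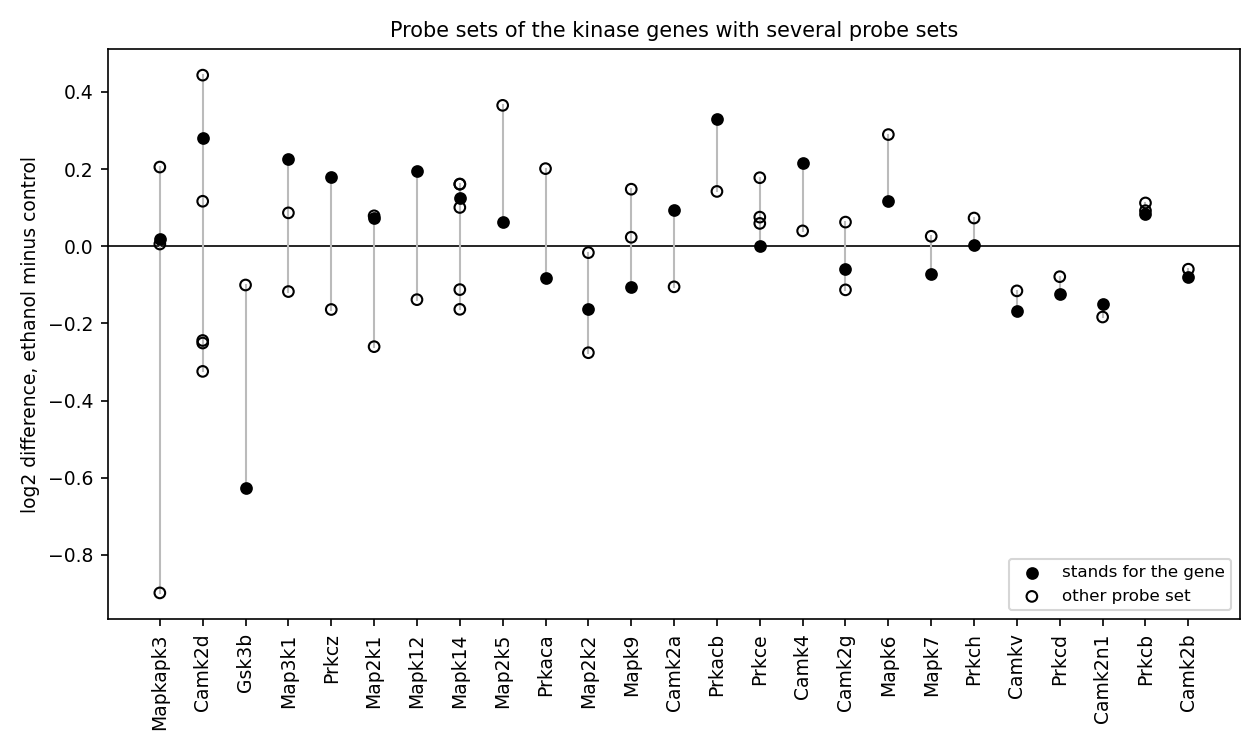
Log2 difference of ethanol minus control for every probe set of the 25 genes with several probe sets, ordered by the span between them. Filled points stand for the gene and open points are its other probe sets; Mapkapk3, Camk2d and Gsk3b have the widest spans, of 1.10, 0.768 and 0.527.

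The arrays of a group varied among themselves about as much in these genes as in others. The median SD within groups was 0.208 over the 51 genes, against 0.188 over all genes. Control 2 was the lowest of the 7 arrays in 16 of the 51 genes and the highest in 9, so it was outermost in 25 (49.0%), as it was in 48.3% of all genes. Ethanol 4 was outermost in 21 genes (41.2%, against 32.8% of all genes), and control 3 in 5 (9.80%, against 18.8%). Of the 51 genes 10 had a mean under 4 (19.6%, against 23.2% of all genes), where differences may be understated.

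**Figure D4:**
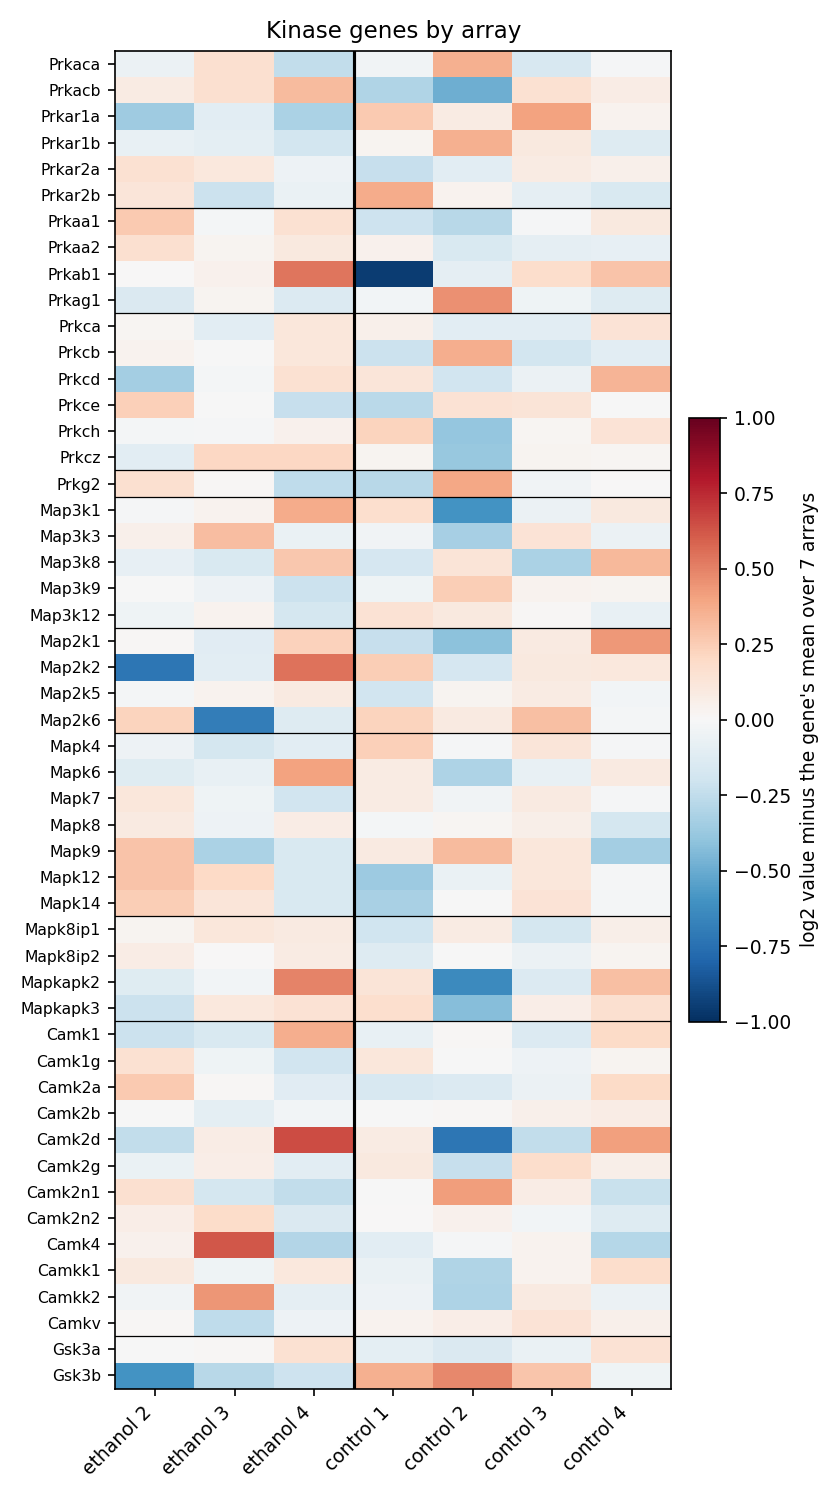
Value of each of the 51 genes on each array minus the gene's mean over the 7 arrays, in log2 units, with ethanol arrays left of controls and families separated by lines. Control 2 has the most outermost values, and Gsk3b and Prkar1a are lower on all 3 ethanol arrays than on the controls.

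Other genes of the same routes were also examined. The 7 pathway lists held 145 different measured genes, of which 73 were higher and 72 lower, and 0 passed limma's test. At unadjusted p under 0.05 there were 6 (4.14%, against 4.37% of all genes), 3 higher and 3 lower. Of 30 genes of cyclic AMP signalling, 13 were higher and 17 lower, with 1 at unadjusted p under 0.05. This was Pkia, which encodes a PKA inhibitor, at -0.28 (adjusted p = 0.967), with its other probe sets at 0.025 and -0.19. Of 21 phospholipase C and diacylglycerol genes, 10 were higher and 11 lower, with Gap43, a PKC substrate, at -0.49 (adjusted p = 0.967). Of 17 genes upstream or downstream of GSK3, 5 were higher and 12 lower, with a median of -0.077 and none at unadjusted p under 0.05. The lowest p values there were those of Fzd2, a Wnt receptor gene, at -0.27, Pdpk1, which encodes the kinase PDK1, at -0.36, and Akt2 at -0.24. The lists of cyclic GMP (7 of 14 higher), calmodulin and calcineurin (9 of 16) and AMP-activated kinase genes (6 of 12) also had none at unadjusted p under 0.05.

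The MAPK inputs and targets held the 4 remaining genes. Of 36 measured genes, 23 were higher and 13 lower, with 3 higher and 1 lower at unadjusted p under 0.05 (11.1%, against 4.37% of all genes). Fosl1, an AP-1 subunit gene, was at 5.76, 6.68 and 6.36 with ethanol and 7.51, 7.24, 7.54 and 7.41 in controls. The groups did not overlap, and the log2 difference was -1.16 (SE 0.203, limma adjusted p = 0.135, and 0.0485 without ethanol 3). Jund, another AP-1 subunit gene, was at 7.97, 8.39 and 7.05 with ethanol and 7.21, 4.68, 5.09 and 7.38 in controls. Controls 2 and 3 lay far below controls 1 and 4, and the log2 difference was 1.72 (SE 0.657, adjusted p = 0.967). Egr1, an immediate-early transcription factor gene, was at 9.67, 10.77 and 10.77 with ethanol and 10.18, 9.05, 8.99 and 9.83 in controls. Its log2 difference was 0.89 (adjusted p = 0.967), and its other probe sets stood at 0.11 to 0.89. Hspb1, the gene of a heat shock protein phosphorylated downstream of p38, was at 0.43, with its other probe sets at 0.0054 to 0.98. Fos, named after its values were seen, was at 0.45 (adjusted p = 0.967) and passed without ethanol 2, with a difference of 0.90 and adjusted p = 0.0358.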

How the data were processed

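Values were the series table of 7 arrays. The authors deposited log2 values: the log2 scale was read from their range and near-equal array means, and the summarisation, background correction and normalization are not given in the sources used here. If that summary compresses low signals, differences of dim probe sets are understated. Of 8799 probe sets, 59 array controls were left out. Gene names came from the platform annotation, and all 51 members matched the RefSeq gene table of GRCr8 by Entrez identifier with 0 symbols changed.

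The test was limma 3.58.1, run in R 4.3.3 on every probe set (diet group as the term, empirical Bayes moderation, two-sided, Benjamini-Hochberg over 8740 probe sets, threshold 0.05), and the method was tested on simulated data. Figures used matplotlib 3.10.9 in Python 3.11.15. P-values set the diet difference against the spread between arrays within groups, moderated over all probe sets. Members and lists were chosen with earlier results of these data known, so no list was tested. Every member may be named. Array values are given for members at unadjusted p under 0.05, with groups that do not overlap, or with the 2 greatest differences of a family, and second probe sets where they differ in sign or by over 0.3. From each list came genes at unadjusted p under 0.05 and the 3 with the lowest p or the first 2 measured, of which some are printed. The 17 alternatives covered normalization, dim filters, variance model, array weights, a replicate block, single arrays left out and the choice of probe set.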

Additional observations from a re-analysis of the deposited data

Results flagged for a closer look

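The gap of the outermost control to its nearest neighbour was compared with the range of the 4 controls in the 94 probe sets, and 3 stood out, where chance flags about 1 in 20 groups. All 3 were control 2. Its Prkag1 value was 6.26, where controls 1, 3 and 4 read 5.67 to 5.77. Its Prkcz value was 4.51, where those 3 controls read 4.90 to 4.91. Its Mapkapk3 value was 6.84, where they read 7.33 to 7.43.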

How the results depend on the processing

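Gsk3b and Prkar1a kept their sign and an unadjusted p under 0.05 under all 17 alternatives. Their log2 differences were -0.73 to -0.36 and -0.54 to -0.39, with adjusted p of 0.142 to 0.999 and 0.224 to 0.999. Both genes had been picked at this p on the same arrays, so this is a description only. No alternative used the second Gsk3b probe set alone, which stood at -0.10 (limma unadjusted p = 0.513). Under these alternatives 0 of the kinase genes passed. At unadjusted p under 0.05 the count of 2 became 4 without variance moderation (7.84%, against 4.18% of all genes), 6 with array weights (11.8%, against 11.3%), and 2 to 3 with single arrays left out (3.92% to 5.88%, against 2.49% to 8.45%). Of all probe sets, 13 passed, against 0 without variance moderation (367 at unadjusted p under 0.05) and 23 with the replicate block. The median of the kinase genes, 0.021, was -0.027 with a mean of at least 5 (26 genes left) and 0.015 to 0.061 with single arrays left out. Pathway genes past the threshold were 0, with 6 at unadjusted p under 0.05, but 1 with the replicate block (Fosl1, -1.13, adjusted p = 0.0415) and 0 to 1 with single arrays left out. Of 344 values of 21 members, 6 changed sign. The 21 had been picked on these arrays by p, by groups that did not overlap or by the greatest differences of a family. Changes of sign were thus less likely in them than in members near 0. Prkg2 was 0.037 with array weights and ran from -0.14 to 0.080 with single arrays left out, Prkcd from -0.23 to 0.010, Map2k2 from -0.48 to 0.15 and Camk4 from -0.032 to 0.42; the cause was not tested. Same-numbered arrays deviated together at 0.425, 0.0666 and 0.432 for numbers 2, 3 and 4. Numbers 2 and 4 gave the highest correlations of all ethanol and control pairings. Ethanol 3 was low with its own number and at 0.104 with control 1, its best match. The main fit did not take the numbers as pairs, and whether same-numbered arrays belong together is not settled by these values. The replicate block gave 3 kinase genes at unadjusted p under 0.05 (5.88%, against 7.60% of all genes), Camk2d besides Gsk3b and Prkar1a. Control 1 has no ethanol array of its number. The log2 differences of the block were therefore the same as those without control 1. No detection calls were used, so dim probe sets may be background.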
